A study of Mus musculus with 12 samples.

Results

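The clustered protocadherin genes of the mouse lie in 3 neighbouring arrays on chromosome 18, named alpha, beta and gamma. All rows of the deposited count table whose gene symbol named a member of these arrays were taken, which gave 23 of 24207 genes: 1 alpha row, 21 beta genes (Pcdhb2 to Pcdhb22) and 1 gamma row. They were measured by RNA sequencing in 12 libraries that form 4 groups of 3. Every group's cells were embryonic fibroblasts of strain C57BL/6 with the constructs FUW-OSKM, a lentiviral vector for the reprogramming factors Oct4, Sox2, Klf4 and Myc, and FUW-M2rtTA, the transactivator that switches these factors on when doxycycline is present. All grew in embryonic stem cell medium on a layer of irradiated feeder fibroblasts until day 7. The uninduced cells had a scrambled short hairpin and no doxycycline. The 3 induced groups received doxycycline together with a scrambled hairpin (the induced controls), a hairpin against Trim28 (the Trim28 knockdown), or hairpins against Trim28 and Setdb1 (the double knockdown). Whether feeder cells were removed before harvest is not stated, so their RNA cannot be told apart from that of the reprogrammed cells. In such bulk samples, fewer cells of a type and less RNA per cell also cannot be told apart. Nothing in the labels says that replicates came from separate cultures, so p-values reflect only how far these samples spread, and that spread may be technical.

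Protocadherins are cadherin-like adhesion proteins of the cell surface. In the alpha and gamma arrays, each variable first exon has its own promoter and encodes the extracellular, transmembrane and juxtamembrane parts, and it is spliced to constant exons that all isoforms of the array share, whereas each beta gene is a single coding exon without a constant part. The arrays are best known in neurons, where each cell uses a small, largely random set of isoforms that bind their own kind on other cells and so mark the cell's identity. The choice is tied to promoter DNA methylation, to the insulator protein Ctcf with cohesin, and to repressive histone marks. Trim28 is a corepressor that recruits the histone H3 lysine 9 methyltransferase Setdb1, and Setdb1 is known to restrain expression from these arrays in neurons.

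The alpha and gamma rows are not single isoforms. The alpha row carries the symbol Pcdha10 (ENSMUSG00000007440) and spans 36930285 to 37187657 on chromosome 18. In the GENCODE M21 annotation of the mouse build GRCm38, this stretch holds the first exons of all 14 Pcdha genes. The gamma row carries the symbol Pcdhga12 (ENSMUSG00000023036), spans 37674335 to 37841873, and holds the first exons of 20 of 22 annotated Pcdhg genes. Both were therefore read as counts over an array, and no isoform of either could be resolved. The beta genes lie between them with 1 row each. The build of the deposited coordinates was not given in the sources used here. In position, 14 of the 21 beta genes start and end within 50 bases of their M21 annotation.

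Beta genes resemble each other in sequence. Coding sequences of the 21 beta genes were 70.1% to 89.68% identical in pairs, with a median of 73.32% over 210 pairs, and 18 pairs were above 80%. Pcdhb7 with Pcdhb9 and Pcdhb6 with Pcdhb8 were the closest pairs. Of all distinct 50-base windows in a beta gene's annotated exons, 1.5% to 11.99% also occurred in another beta gene. With 100-base windows, 8 of the genes had none shared. Pcdhb21 and Pcdhb22 shared 7.73% and 5.39% of their 100-base windows, because their annotated exons overlap in M21, whereas their deposited spans are adjacent. Read length and the treatment of reads with several matches are not stated, and the split of reads between near-identical copies is uncertain.

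Detection was uneven along the beta array. The gamma row collected 80731 reads over the 12 libraries, the alpha row 1483, and the 21 beta genes together 6373. CPM values are counts per 1e6 counts, scaled with TMM factors. The filter on low counts asked for about 0.6 CPM before this scaling, in at least 3 libraries. It left 15 members to test: both array-wide rows and 13 beta genes. Only 8 of these exceeded that level in all 12 libraries. The 8 beta genes that did not pass were Pcdhb4, Pcdhb6 and Pcdhb8 to Pcdhb13, with 17 to 71 reads each over all libraries and never more than 13 in 1 library. These low-count genes were mostly those with close relatives: 7 of the 8 had another beta gene over 85% identical, against 2 of the 13 tested genes, Pcdhb5 and Pcdhb7. Whether reads lost to several matches lowered their counts was not tested. Pcdhb15 passed the filter through the uninduced and induced control libraries, and no knockdown library exceeded the level, so its lower values in the knockdowns are in part a property of the filter. Pcdhb7 exceeded the level in all libraries of those groups, in no Trim28 knockdown library and in 1 of the double knockdown. The same limit holds for its lower values.

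Libraries held 11906701 to 19191649 counted reads, and each pair of same-group replicates differed beyond sampling noise, with a chi-square of 1.96 to 18.8 per degree of freedom. The targeted genes were read first, as a check of the labels. Trim28 read 361, 286 and 337 CPM in the induced controls, 64.0, 52.2 and 59.1 CPM in the Trim28 knockdown and 106, 95.5 and 107 CPM in the double knockdown, log2 changes of -2.49 ± 0.10 and -1.67 ± 0.10 (± SE of the model). Setdb1 read 76.4, 84.4 and 82.8 CPM in the induced controls and 65.2, 70.02 and 54.0 CPM in the double knockdown, a log2 change of -0.36 ± 0.09. In the Trim28 knockdown, whose hairpin does not target it, Setdb1 read 121 to 124 CPM, a log2 change of 0.59 ± 0.08. Setdb1 differed between the knockdowns by -0.95 ± 0.08 on the log2 scale, and the double knockdown lay near the uninduced cells at 56.8 to 65.3 CPM, from which its difference of 0.06 did not pass the test.

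The gamma array was the most abundant of the 3 in reads. It read 571, 551 and 522 CPM in the uninduced cells, 375, 298 and 315 CPM in the induced controls, 345, 334 and 326 CPM in the Trim28 knockdown and 451, 401 and 396 CPM in the double knockdown. The uninduced libraries lay above all others, the induced controls and the Trim28 knockdown overlapped, and the double knockdown lay between these and the uninduced cells without overlap. The alpha array followed the same order at a far lower level. Its row read 11.1, 11.4 and 12.6 CPM in the uninduced cells, 5.26, 4.21 and 4.65 CPM in the induced controls, 5.90, 5.79 and 5.13 CPM in the Trim28 knockdown and 8.88, 7.85 and 7.30 CPM in the double knockdown. Induced control replicate 1 overlapped the Trim28 knockdown, and every double knockdown library exceeded every library of those groups. No level is compared per length between these rows, because each mixes isoforms.

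**Figure D1:**
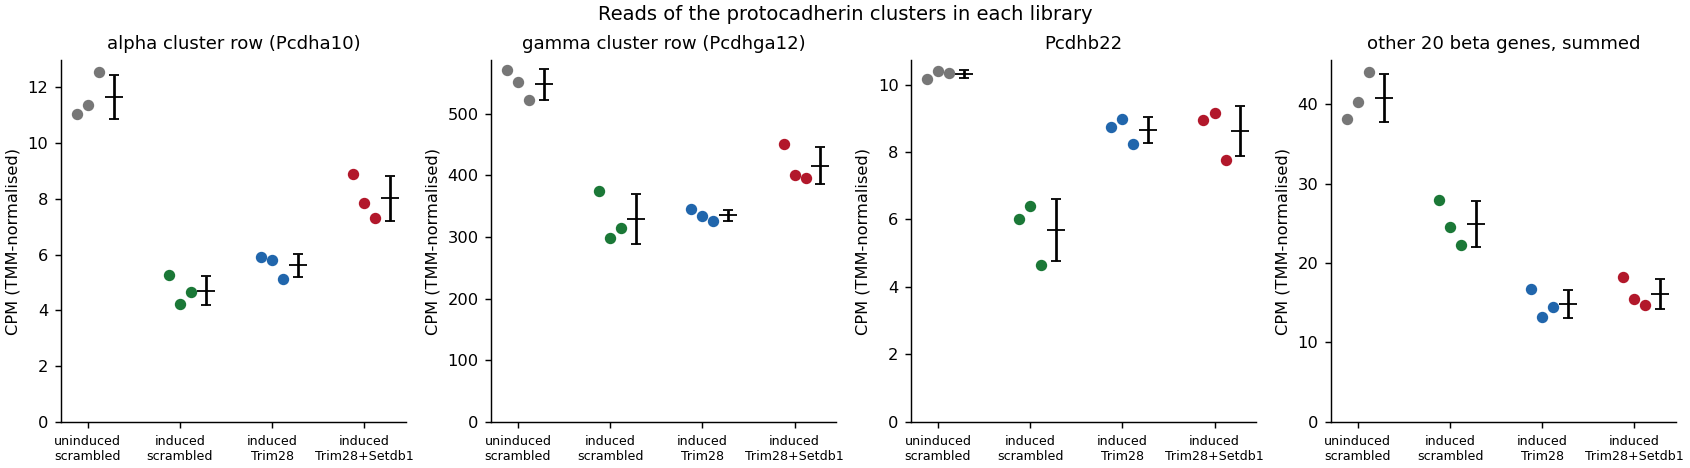
CPM (TMM-normalised, linear axes from 0) of the alpha row, the gamma row, Pcdhb22 and the sum of the other 20 beta genes, with 1 point per library and the mean ± SD of the 3 libraries of each group beside them. Alpha and gamma counts were highest in the uninduced cells and higher in the double knockdown than in the induced controls, while the induced controls and the Trim28 knockdown overlapped. Pcdhb22 was higher in both knockdowns than in the induced controls, and the other beta genes were lower in both knockdowns.

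Single beta genes could be compared per length, since each has 1 deposited span. Pcdhb22 (ENSMUSG00000073591, 37518353 to 37521419), at the end of the array next to gamma, had the highest level per length in all 4 groups, with 3.36 ± 0.04 CPM per kilobase of exon (SD, n = 3) in the uninduced cells. Pcdhb17 ranked next in all 4 groups, with 2.84 ± 0.453 CPM per kilobase in the uninduced cells. The difference between these leaders was close to the spread of Pcdhb17 there. In the Trim28 knockdown they stood further apart, at 2.82 ± 0.127 CPM per kilobase for Pcdhb22 and 0.836 ± 0.1 for Pcdhb17. Next in the uninduced cells came Pcdhb16 with 1.02 ± 0.127, Pcdhb19 with 0.838 ± 0.0489 and Pcdhb20 with 0.821 ± 0.0889 CPM per kilobase, neighbours in the order whose spreads overlapped or nearly did. The remaining 16 beta genes lay at 0.684 CPM per kilobase or lower in that group. Of the 10 highest beta genes in that group, 8 lay in the gamma-proximal stretch from Pcdhb14 to Pcdhb22, and the others were Pcdhb5 and Pcdhb7. These were all genes of the stretch but Pcdhb15, and its bounds were not set beforehand. The low-count genes that did not pass the filter all lie outside it, and most have close relatives. Whether reads lost to several matches shaped this order was not tested. Lengths are those of the M21 exons cut to the deposited spans. Of the beta genes, 6 end more than 500 bases from their M21 end, among them Pcdhb22 and Pcdhb17, so levels per length depend on the gene model.

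**Figure D2:**
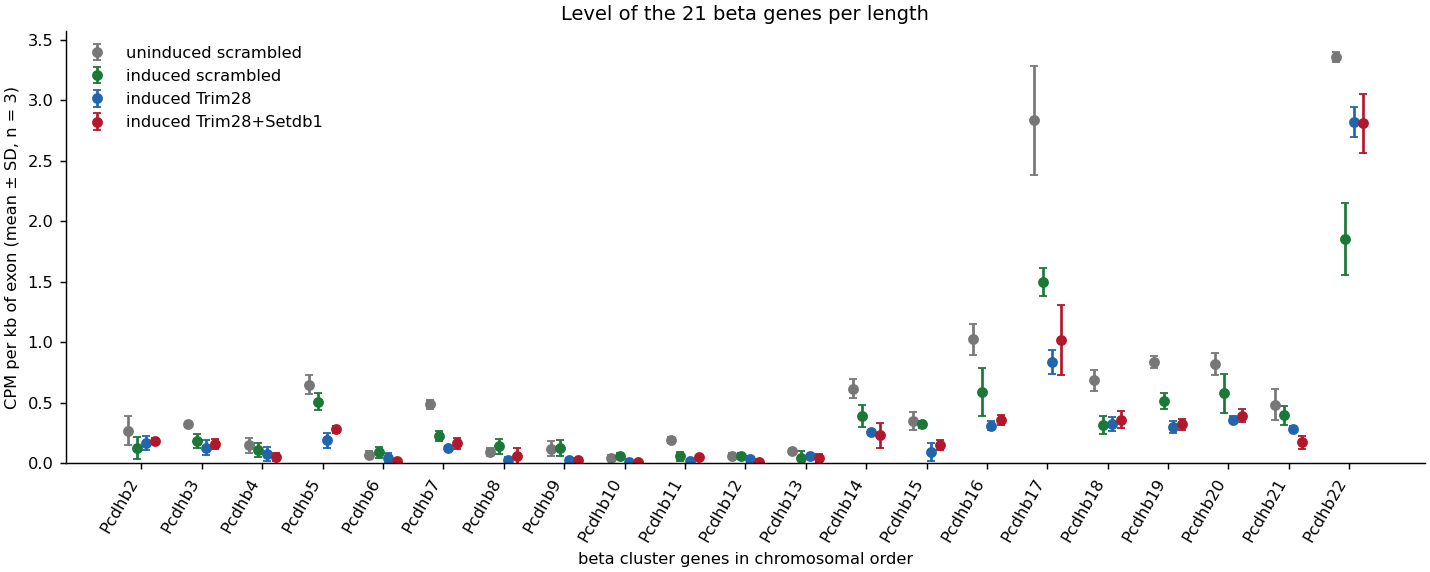
Level of each of the 21 beta genes in CPM per kilobase of exon (linear axis), in chromosomal order, as the mean ± SD of 3 libraries for each of the 4 groups. Pcdhb22 and Pcdhb17 stand above the others in every group, and the stretch from Pcdhb8 to Pcdhb13 lies near 0.

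Clustered protocadherins fell on induction of the reprogramming factors. By edgeR's quasi-likelihood test, with a Benjamini-Hochberg adjusted p under 0.05 over all 14520 tested genes, 11 of the 15 tested members fell and 0 rose between uninduced cells and induced controls. Over all tested genes, 32.7% fell and 32.7% rose in this comparison. The members' median log2 change was -0.81, beside -0.02 for all tested genes. No tested member had a fitted value above 0, so none rose at an unadjusted p under 0.05 either, and DESeq2 and limma-voom also called 0 rises. The alpha row fell by 1.298 ± 0.129 on the log2 scale (adjusted p = 1.743e-07), to 40.4% of the uninduced mean. The gamma row fell by 0.73 ± 0.08 (adjusted p = 7.213e-07), to 60.1%.

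Of the 13 tested beta genes, 9 fell. Pcdhb22 read 10.2, 10.4 and 10.4 CPM in the uninduced cells and 6.02, 6.40 and 4.65 CPM in the induced controls, a log2 change of -0.87 ± 0.13 (edgeR adjusted p = 1.77e-05). Pcdhb17 read 7.62, 9.70 and 10.5 CPM before and 5.32, 4.62 and 4.75 CPM after induction, a log2 change of -0.92 ± 0.17. Pcdhb18 read 3.18, 3.21 and 3.95 CPM in the uninduced cells and 1.46, 1.295 and 2.00 CPM in the induced controls, a log2 change of -1.08 ± 0.22. For each of these genes all uninduced libraries lay above all induced control libraries, which was also the case for 32.2% of all tested genes. The other beta genes that fell were Pcdhb7 (-1.10 ± 0.26), Pcdhb16 (-0.81 ± 0.21), Pcdhb19 (-0.72 ± 0.16), Pcdhb3 (-0.89 ± 0.33), Pcdhb14 (-0.68 ± 0.26) and Pcdhb20 (-0.55 ± 0.21). Pcdhb16 read 4.81, 5.14 and 6.08 CPM in the uninduced cells and 4.09, 3.08 and 2.05 CPM in the induced controls, and Pcdhb19 read 5.68, 6.36 and 5.89 against 3.80, 4.05 and 3.15 CPM. Pcdhb7 read 1.81, 1.54 and 1.75 against 0.935, 0.810 and 0.650 CPM. In these 3 genes too, the uninduced libraries lay above the induced controls.

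The falls of Pcdhb3, Pcdhb14 and Pcdhb20 were the least firm. Pcdhb14 read 2.43, 1.93 and 2.01 CPM in the uninduced cells and 1.64, 1.38 and 1.00 CPM in the induced controls, Pcdhb3 1.19, 1.29 and 1.17 against 0.701, 0.891 and 0.450 CPM, and Pcdhb20 2.75, 2.51 and 3.11 against 1.69, 2.59 and 1.60 CPM. Pcdhb20 overlapped between the groups through induced control replicate 2. Pcdhb14 lost its call without uninduced replicate 1 or induced control replicate 3 (adjusted p up to 0.159), Pcdhb3 without uninduced replicate 2 or induced control replicate 3 (up to 0.142), and Pcdhb20 without any of uninduced replicates 1 and 3 and induced control replicates 1 and 3 (up to 0.143). DESeq2 did not call these 3 genes (adjusted p = 0.124 for Pcdhb3, 0.12 for Pcdhb14 and 0.14 for Pcdhb20), and Pcdhb20 was also not called without the low-count filter (0.0509) or with only the 2 groups in the fit (0.0819). Pcdhb2 (-1.02 ± 0.48), Pcdhb5 (-0.34 ± 0.22), Pcdhb21 (-0.30 ± 0.25) and Pcdhb15 (-0.11 ± 0.33) did not pass. Pcdhb5 read 2.06, 2.25 and 2.59 CPM in the uninduced cells and 2.05, 1.54 and 1.80 CPM in the induced controls, and Pcdhb15 read 0.811, 1.22 and 0.906 against 0.935, 0.810 and 0.9502 CPM. Pcdhb21 read 1.69, 2.25 and 2.85 against 2.16, 1.94 and 1.45 CPM. Pcdhb2, Pcdhb15 and Pcdhb21 overlapped between the groups, and the lowest uninduced library of Pcdhb5 lay just above its highest induced control. Pcdhb2 passed under limma-voom (adjusted p = 0.0416) and without uninduced replicate 3 or induced control replicate 1 (adjusted p from 0.00882).

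**Figure D3:**
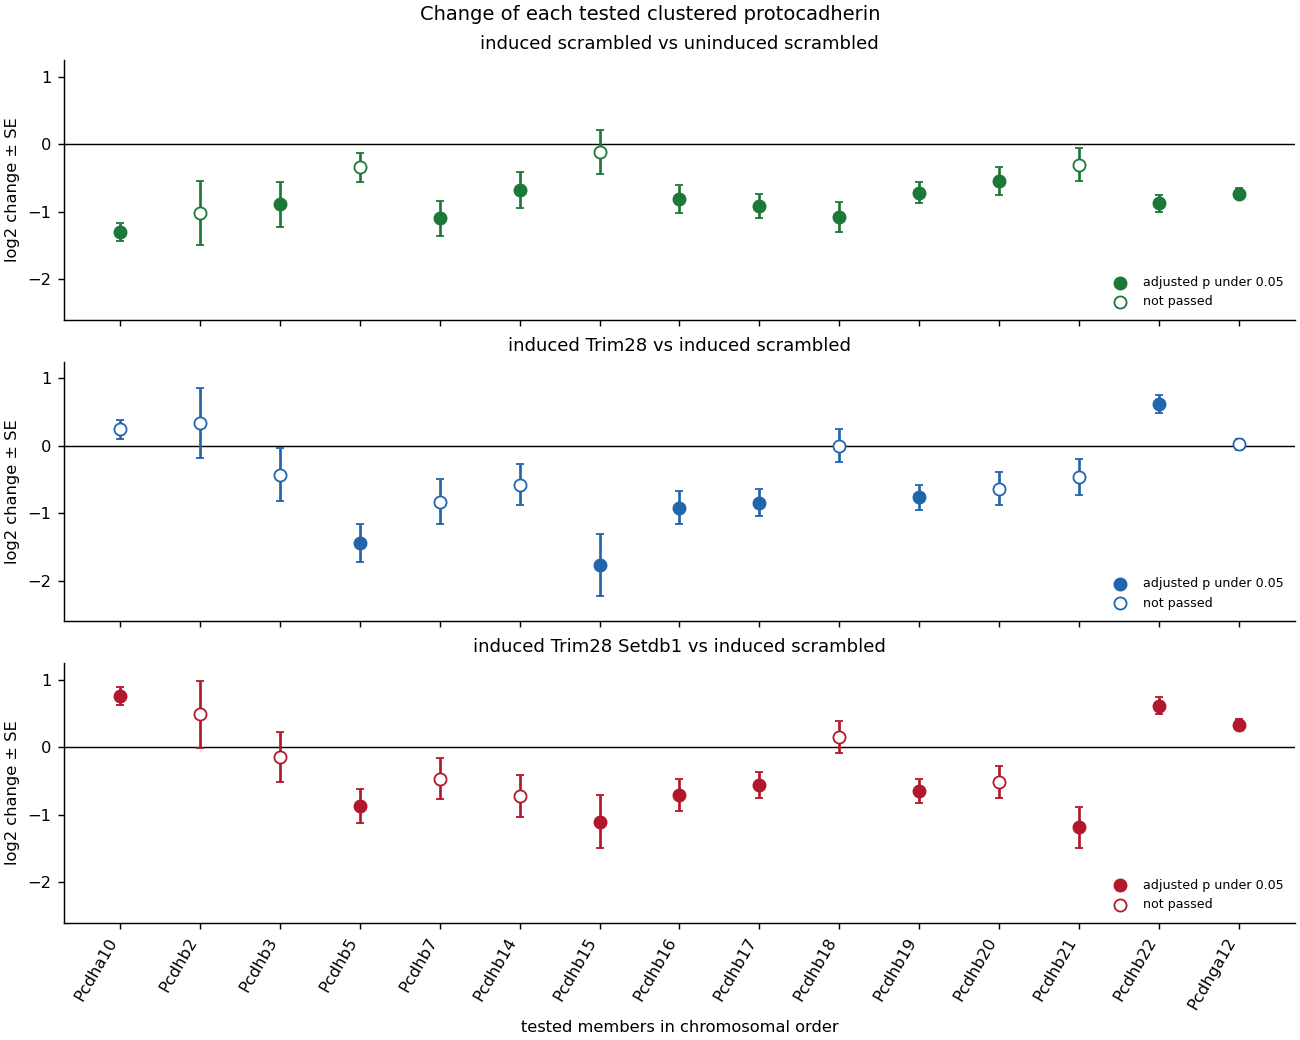
Log2 change ± SE of the model for each of the 15 tested members, in chromosomal order, for the 3 comparisons named above the panels; filled points have an adjusted p under 0.05. After induction every point is below 0, whereas in both knockdowns Pcdhb22 is above 0 and Pcdhb5, Pcdhb15, Pcdhb16, Pcdhb17 and Pcdhb19 are below.

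Beta genes differed in direction in the Trim28 knockdown. Compared with the induced controls, 5 of 15 tested members fell and 1 rose by the same test, beside 11.8% and 13.1% of all tested genes. The median log2 change of the members was -0.58, beside 0.00 for all tested genes. The members that fell were Pcdhb5, Pcdhb15, Pcdhb16, Pcdhb17 and Pcdhb19, and the member that rose was Pcdhb22. The alpha row (0.24 ± 0.14, edgeR adjusted p = 0.222) and the gamma row (0.02 ± 0.08, adjusted p = 0.864) did not pass, and the sign of the gamma value changed when single libraries were left out.

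Pcdhb22 read 8.75, 8.98 and 8.22 CPM in the Trim28 knockdown, above all 3 induced controls at 4.65 to 6.40 CPM, a rise of 0.62 ± 0.13 on the log2 scale (edgeR adjusted p = 0.00224). Of all tested genes, 20.4% lay higher and 18.4% lower in every Trim28 knockdown library than in every induced control. Pcdhb5, which induction alone had not lowered past the threshold, read 0.825, 0.414 and 0.758 CPM, below the 1.54 to 2.05 CPM of the induced controls, a log2 change of -1.44 ± 0.28 (adjusted p = 0.000781). Pcdhb17 read 2.98, 2.36 and 2.86 CPM, a log2 change of -0.84 ± 0.20 (adjusted p = 0.00542). All of its Trim28 knockdown libraries were below all induced controls. Pcdhb19 read 2.54, 1.89 and 1.98 CPM, a log2 change of -0.77 ± 0.18 (adjusted p = 0.00522), also without overlap. Pcdhb16 read 1.78, 1.65 and 1.40 CPM, a log2 change of -0.92 ± 0.25 (adjusted p = 0.0116). That call was lost without induced control replicate 1, the highest of its group, or without Trim28 knockdown replicate 3 (adjusted p up to 0.0655). Pcdhb15 read 0.508, 0.118 and 0.175 CPM, from 8, 2 and 3 reads, a log2 change of -1.77 ± 0.46 (adjusted p = 0.0055) that rests on few reads and ran from -2.58 to -1.42 with 1 library left out.

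Pcdhb18 did not pass, with a fitted value of 0.00 ± 0.24 on the log2 scale and 1.97, 1.48 and 1.46 CPM in the Trim28 knockdown. Pcdhb7 (-0.83 ± 0.33, adjusted p = 0.0868), Pcdhb20 (-0.63 ± 0.24, 0.0611), Pcdhb14 (-0.58 ± 0.31, 0.185), Pcdhb21 (-0.46 ± 0.27, 0.229) and Pcdhb3 (-0.43 ± 0.39, 0.464) had lower fitted values that did not pass, and Pcdhb2 had 0.34 ± 0.51. Pcdhb20 read 1.27, 1.30 and 1.11 CPM against 1.69, 2.59 and 1.60 CPM in the induced controls, and it passed only where induced control replicate 3 was left out (adjusted p = 0.0491). Pcdhb14 read 0.888, 0.886 and 0.875 CPM in the Trim28 knockdown, Pcdhb7 0.508, 0.414 and 0.408 CPM, and Pcdhb21 1.33, 1.42 and 1.23 CPM. Together the 20 beta genes other than Pcdhb22 read 14.8 ± 1.79 CPM (SD, n = 3) in the Trim28 knockdown and 24.9 ± 2.89 CPM in the induced controls.

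The share of Pcdhb22 among beta reads shows the split within each library, without scaling between libraries. It was 21.1%, 20.5% and 19.1% in the uninduced cells and 17.7%, 20.7% and 17.3% in the induced controls. In the Trim28 knockdown it was 34.3%, 40.4% and 36.2%, and in the double knockdown 32.8%, 37.1% and 34.6%. All 6 knockdown libraries lay above all 6 libraries with a scrambled hairpin. Pcdhb22 was the only beta gene that rose in the knockdowns while others fell. This separation therefore restates those changes and is no separate evidence for them. The highest 95% Wilson bound among the latter was 25.0% and the lowest among the former 28.7%, and these intervals cover counting error only. With 3 libraries against 3, an exact permutation test cannot go below p = 0.1 (two-sided), so none was run.

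**Figure D4:**
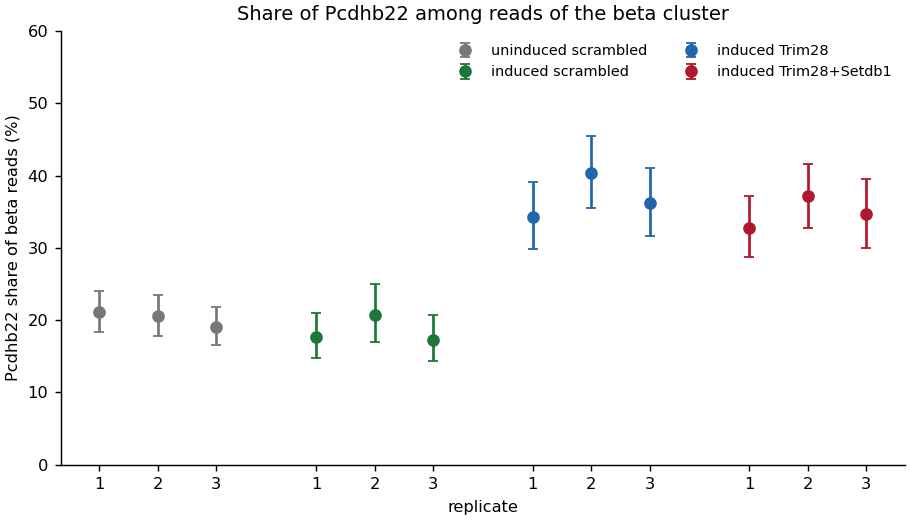
Share of Pcdhb22 among all reads of the 21 beta genes, in percent, for each of the 12 libraries, with 95% Wilson intervals as bars. The 6 libraries with a scrambled hairpin lie between 17.3% and 21.1% and the 6 knockdown libraries between 32.8% and 40.4%. The share restates the rise of Pcdhb22 and the falls of other beta genes.

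In the double knockdown the array-wide rows rose as well. Compared with the induced controls, 3 of 15 tested members rose and 6 fell by edgeR's test, beside 18.1% and 18.5% of all tested genes. The alpha row rose by 0.76 ± 0.13 on the log2 scale (adjusted p = 0.000306), to 68.7% of the uninduced mean. The gamma row rose by 0.34 ± 0.08 (adjusted p = 0.00418), to 75.9%. Pcdhb22 read 8.94, 9.15 and 7.77 CPM and rose by 0.62 ± 0.13 (adjusted p = 0.00153), to 83.6%. In each of these members every double knockdown library exceeded every induced control, as in 23.3% of all tested genes, and none of the 3 calls was lost in 14 alternative settings.

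The beta genes that fell in the double knockdown were the 5 that fell in the Trim28 knockdown, together with Pcdhb21. Both comparisons use the same 3 induced control libraries. Pcdhb21 read 1.06, 0.812 and 0.526 CPM in the double knockdown, below the 1.45 to 2.16 CPM of the induced controls, a log2 change of -1.19 ± 0.30 (edgeR adjusted p = 0.00452). In the gene model of M21 its exons overlap those of Pcdhb22, which lies directly downstream and moved the other way. Pcdhb5 read 1.12, 0.921 and 0.934 CPM, a log2 change of -0.87 ± 0.25 (adjusted p = 0.0108), and Pcdhb19 read 2.53, 2.44 and 1.93 CPM, a log2 change of -0.66 ± 0.18 (adjusted p = 0.00864). For both, the double knockdown libraries were all below the induced controls, as in 21.8% of all tested genes.

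Falls of Pcdhb15 (-1.10 ± 0.39), Pcdhb16 (-0.70 ± 0.24) and Pcdhb17 (-0.56 ± 0.19) in the double knockdown passed with all libraries (edgeR adjusted p = 0.0302, 0.029 and 0.0307) and were not firm. Pcdhb17 read 4.41, 2.82 and 2.74 CPM, Pcdhb16 2.12, 1.73 and 1.75 CPM and Pcdhb15 0.294, 0.433 and 0.526 CPM. Double knockdown replicate 1 had the highest value of its group for Pcdhb16 and Pcdhb17. Pcdhb17 lost its call without induced control replicate 1 or 3 or double knockdown replicate 2 or 3 (adjusted p up to 0.116). Pcdhb16 lost it without induced control replicate 1, where its value was -0.42 (adjusted p = 0.164), or double knockdown replicate 2 or 3, and Pcdhb15 without induced control replicate 1 or 3 or double knockdown replicate 1 or 2 (up to 0.116). Pcdhb15 was also not called by DESeq2 (0.0898), Pcdhb16 by limma-voom (0.0568), and Pcdhb16 and Pcdhb17 with only the 2 groups in the fit (0.0588 and 0.0521). Without induced control replicate 1, the count of members that fell was 3. Pcdhb14, at 0.647, 1.19 and 0.526 CPM, had a log2 value of -0.72 ± 0.31 and passed only without induced control replicate 3 or double knockdown replicate 2 (adjusted p = 0.0421 and 0.012). Pcdhb18 read 1.65, 1.57 and 2.22 CPM, overlapping the induced controls, and Pcdhb20 read 1.53, 1.19 and 1.29 CPM, below them. Pcdhb7, Pcdhb20, Pcdhb3, Pcdhb18 and Pcdhb2 did not pass, with log2 values from -0.51 for Pcdhb20 to 0.49 for Pcdhb2.

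The double and the single knockdown were also compared directly. Trim28 itself was 0.82 ± 0.10 higher on the log2 scale in the double knockdown, so the added Setdb1 hairpin and the smaller loss of Trim28 cannot be told apart. The alpha row was 0.51 ± 0.13 higher on the log2 scale (edgeR adjusted p = 0.00893) and the gamma row 0.31 ± 0.08 higher (adjusted p = 0.0117) in the double knockdown, so 2 of 15 tested members rose and 0 fell, beside 10% and 11.7% of all tested genes. Both calls were lost without Trim28 knockdown replicate 3, the lowest of its group in both rows, or without double knockdown replicate 1, the highest of its group, with adjusted p up to 0.0534 for alpha and 0.0748 for gamma. The count of members that rose was then 0. None of the 13 tested beta genes passed by edgeR, DESeq2 or limma-voom. Of these, 1 had an unadjusted p under 0.05, Pcdhb21 at -0.72 ± 0.31 (unadjusted p = 0.031, adjusted p = 0.105). Pcdhb22 had nearly the same level in both knockdowns, with a log2 difference of 0.00 ± 0.12. Pcdhb5 had 0.57 ± 0.30 and Pcdhb15 0.66 ± 0.51, neither past the threshold.

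Against the uninduced cells, both knockdowns stayed low in most members. In each of the 2 comparisons 13 of 15 tested members fell by edgeR's test, 0 rose by edgeR, DESeq2 or limma-voom, and 0 rose at an unadjusted p under 0.05. Over all tested genes, 32.6% fell and 34.1% rose in the Trim28 knockdown, and 27.2% fell and 31.6% rose in the double knockdown. Those 13 members were the same in both, and the comparisons share the 3 uninduced libraries. The exceptions were Pcdhb22 (-0.25 ± 0.12 and -0.26 ± 0.12, adjusted p = 0.0782 and 0.0792) and Pcdhb2. Pcdhb22 stood at 83.9% of the uninduced mean in the Trim28 knockdown, whereas the sum of the other 20 beta genes stood at 36.3% there and at 39.6% in the double knockdown. All Pcdhb22 knockdown libraries, at 7.77 to 9.15 CPM, were still below the 10.2 to 10.4 CPM of the uninduced cells. Among the falls in the Trim28 knockdown were those of Pcdhb7 (-1.93 ± 0.30), Pcdhb15 (-1.87 ± 0.46), Pcdhb5 (-1.78 ± 0.27) and Pcdhb17 (-1.76 ± 0.19). Pcdhb7 and Pcdhb15 had no Trim28 knockdown library above the filter level, so the size of their falls is in part a property of the filter. The call of Pcdhb21 there was lost without uninduced replicate 3 or Trim28 knockdown replicate 3 (adjusted p up to 0.0895) and by DESeq2 (0.0563). In the double knockdown, Pcdhb15 lost its call without uninduced replicate 2 (0.0537), and Pcdhb3 without double knockdown replicate 3 (0.0598) and by DESeq2 (0.0552).

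The 8 untested beta genes were described by their summed reads. After induction and scaling, Pcdhb6 (1.19-fold), Pcdhb8 (1.62-fold), Pcdhb9 (1.12-fold) and Pcdhb10 (1.27-fold) had higher counts, with 95% counting intervals that included 1. Pcdhb4, Pcdhb11, Pcdhb12 and Pcdhb13 had lower counts. Pcdhb11 had 32 reads in the uninduced cells and 11 in the induced controls, 3.06-fold lower after scaling (95% counting interval 1.5 to 6.73). With 3 reads in the Trim28 knockdown and 10 in the double knockdown, it was 11.3-fold (3.53 to 57.7) and 3.58-fold lower (1.72 to 8.16) there than in the uninduced cells. Both of these differences passed in edgeR without the low-count filter (adjusted p = 9.193e-06 and 0.00378) and in DESeq2 (0.00169 and 0.0286). Pcdhb8 and Pcdhb9 had 17 and 20 reads in the induced controls and 3 and 4 in the Trim28 knockdown, 5.71-fold lower (1.65 to 30.4) and 5.04-fold lower (1.69 to 20.3). In the double knockdown Pcdhb9 had 4 reads, 5.32-fold lower than in the induced controls (1.78 to 21.4). Without the low-count filter, the fall of Pcdhb11 on induction had an edgeR adjusted p of 0.00937, and the differences of Pcdhb8 and of Pcdhb9 (in the Trim28 and then the double knockdown) had 0.0319, 0.0227 and 0.0122. DESeq2 called the first of these 4 (adjusted p = 0.0498) and none of the others (0.127, 0.0939 and 0.059). Against the uninduced cells, edgeR without the filter also called Pcdhb9 in both knockdowns (adjusted p = 0.0192 and 0.0166) and Pcdhb4 in the double knockdown (0.0222), and DESeq2 called none of these. For Pcdhb4, Pcdhb6, Pcdhb10, Pcdhb12 and Pcdhb13, the counting intervals included 1 after induction and in the Trim28 knockdown, so no difference was detectable at this depth. In the double knockdown, Pcdhb4 was 2.23-fold lower than in the induced controls (1.01 to 5.31), Pcdhb6 5.32-fold lower (1.13 to 49.9), Pcdhb8 2.58-fold lower (1.02 to 7.37) and Pcdhb10 8.51-fold lower (1.14 to 378), from 1 to 10 reads each in the double knockdown. None of these differences from the induced controls passed in edgeR without the low-count filter or in DESeq2. The counting intervals leave out the spread between replicates.

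Genes within or beside the arrays gave a view of their surroundings. Taf7, which encodes a subunit of the general transcription factor TFIID and lies between the beta and gamma arrays (37640902 to 37644204), read 8.55, 9.12 and 11.1 CPM in the uninduced cells and 12.7, 17.9 and 12.7 CPM in the induced controls, and it rose by 0.58 ± 0.14 on the log2 scale where the members fell. In the Trim28 knockdown Taf7 rose by a further 0.45 ± 0.13, a call lost without induced control replicate 1 or 3 or Trim28 knockdown replicate 2 (edgeR adjusted p up to 0.0926), and in the double knockdown its value was 0.03 ± 0.13. The neighbouring gene 3222401L13Rik (37655907 to 37658737), on the gamma side of Taf7, read 2.61 ± 0.344, 1.79 ± 0.248, 2.61 ± 0.155 and 4.22 ± 0.613 CPM in the uninduced cells, induced controls, Trim28 knockdown and double knockdown. It rose by 1.24 ± 0.19 in the double knockdown (edgeR adjusted p = 6.942e-05), and by 0.69 ± 0.17 against the single knockdown. Gm26672, a long noncoding RNA gene inside the gamma span on the opposite strand, had 10 reads in the induced controls and 73 in the double knockdown, a log2 change of 2.74 ± 0.55 (edgeR adjusted p = 0.000221). Over all 12 libraries it had 119 reads, most of them in the double knockdown. It may have passed the filter only through that group, so its rise there may be in part a property of the filter. No source says that strand was used in counting, and where Gm26672 and the gamma row overlap their reads cannot be told apart. The gamma row had 16402 reads in the induced controls and 21860 in the double knockdown.

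Of the 36 neighbouring genes taken in all, 24 were tested. After induction 7 rose and 7 fell (29.2% each, beside 32.7% and 32.7% of all tested genes). In the Trim28 knockdown 3 rose and 4 fell (12.5% and 16.7%, beside 13.1% and 11.8%), and in the double knockdown 5 rose and 5 fell (20.8% each, beside 18.1% and 18.5%). These shares were near those of all tested genes. Of the nearest tested genes outside the arrays, Zmat2 on the alpha side had -0.05 ± 0.07 after induction, whereas Diap1, a formin gene on the gamma side, rose by 1.07 ± 0.07. In the double knockdown Diap1 had -0.16 ± 0.06, which did not pass. Zmat2 had -0.20 ± 0.07 (edgeR adjusted p = 0.0414), a call lost in 6 of 14 alternative settings (adjusted p up to 0.118): without the low-count filter, with only the 2 groups in the fit, and without induced control replicate 2 or 3 or double knockdown replicate 1 or 2.

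**Figure D5:**
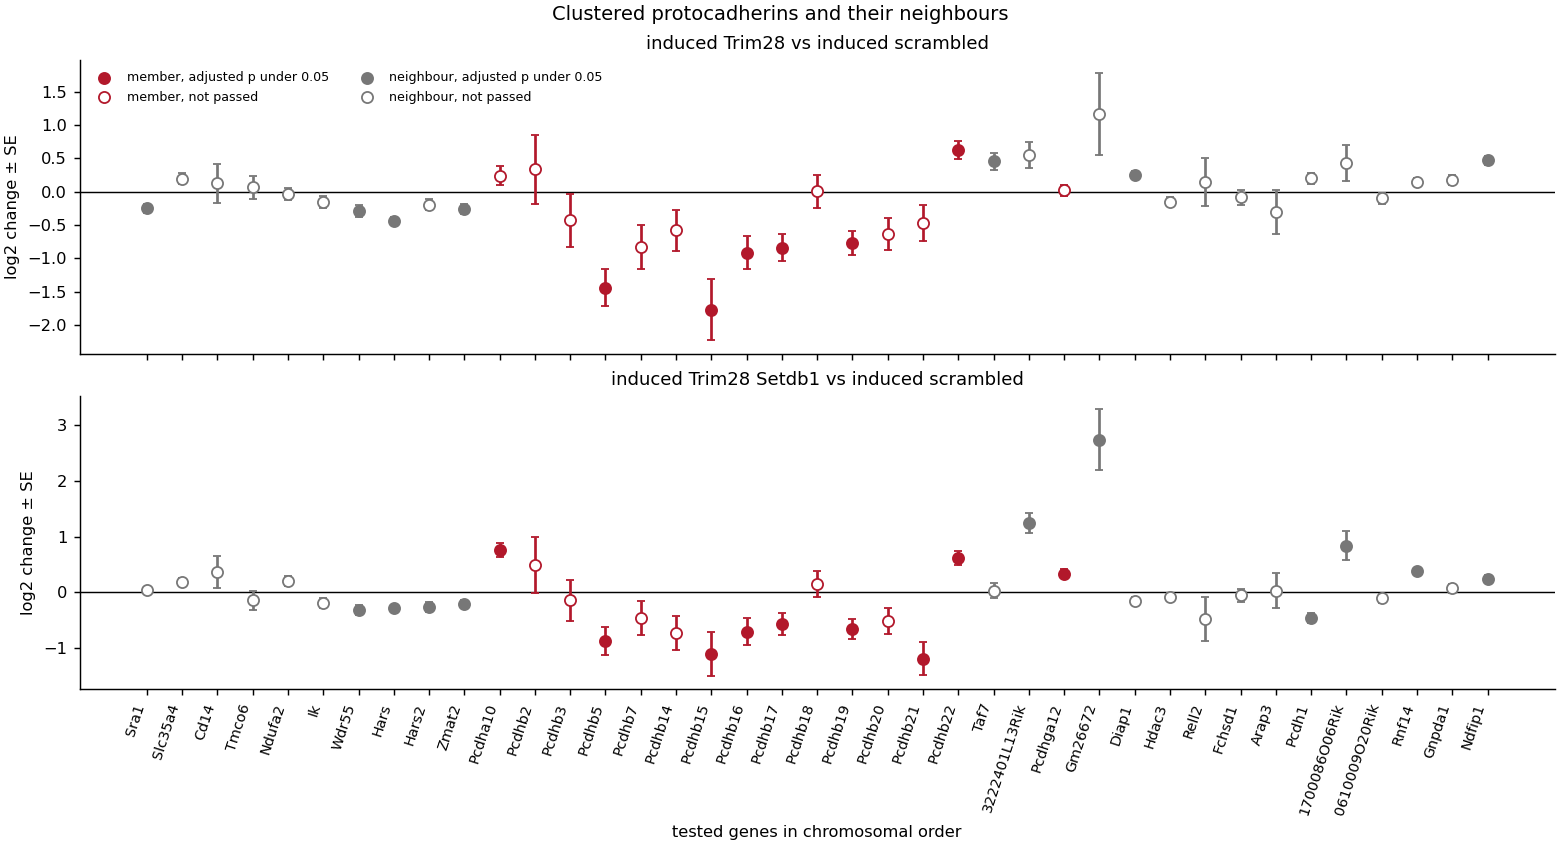
Log2 change ± SE of the model for the 15 tested members (red) and the 24 tested neighbouring genes (grey) in chromosomal order, in the Trim28 knockdown (upper panel) and the double knockdown (lower panel) against the induced controls; filled points have an adjusted p under 0.05. Gm26672 (2.74) and 3222401L13Rik (1.24), both on the gamma side, have the highest values of the lower panel. Most reads of Gm26672 lie in the double knockdown, so its value may be in part a property of the filter.

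Chromatin regulators of the arrays were given as a list of 25 tested genes. After induction 14 rose and 1 fell (56% and 4%, beside 32.7% and 32.7% of all tested genes), in the Trim28 knockdown 0 rose and 6 fell (0% and 24%, beside 13.1% and 11.8%), and in the double knockdown 1 rose and 13 fell (4% and 52%, beside 18.1% and 18.5%). Ctcf, the insulator protein bound at the array promoters, rose by 0.20 ± 0.07 after induction and did not pass in either knockdown. Dnmt3b, a de novo DNA methyltransferase known to methylate protocadherin promoters, rose by 3.34 ± 0.22 after induction, from 2.38 ± 0.267 to 24.2 ± 3.11 CPM. It fell in the Trim28 knockdown (-0.76 ± 0.16) and in the double knockdown (-1.66 ± 0.17), where it was also lower than in the single knockdown (-0.89 ± 0.17). Dnmt3a and Uhrf1 moved the same way: Dnmt3a rose by 0.95 ± 0.07 after induction and had -0.45 ± 0.07 and -0.63 ± 0.07 in the knockdowns, and Uhrf1, the cofactor of maintenance methylation, rose by 1.62 ± 0.09 and had -0.40 ± 0.09 and -0.58 ± 0.09. Atf7ip, the partner that stabilises Setdb1, fell by 0.40 ± 0.07 in the Trim28 knockdown and rose by 0.53 ± 0.07 in the double knockdown. Smchd1, a repressor of the arrays, fell by 0.28 ± 0.08 in the double knockdown. Whether any of these bears on the protocadherin counts was not tested.

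Partners that cleave or bind clustered protocadherins formed a list of 22 tested genes. After induction 5 rose and 11 fell (22.7% and 50%), in the Trim28 knockdown 6 rose and 1 fell (27.3% and 4.55%), and in the double knockdown 7 rose and 2 fell (31.8% and 9.09%), beside the same shares of all tested genes as for the chromatin regulators. Ptk2 and Ptk2b, the cytoplasmic kinases that protocadherin tails bind, rose by 0.37 ± 0.06 and 0.72 ± 0.08 in the Trim28 knockdown and by 0.33 ± 0.06 and 0.44 ± 0.08 in the double knockdown. Ret, a receptor kinase that phosphorylates protocadherins, rose by 3.01 ± 0.16 after induction and fell in both knockdowns (-0.54 ± 0.13 and -1.76 ± 0.14). Marcks, a cytoskeletal substrate of protein kinase C, fell by 1.30 ± 0.09 after induction and did not pass in either knockdown.

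Protocadherins encoded outside the arrays formed a list of 10 tested genes. After induction 8 fell and 1 rose (80% and 10%, beside 32.7% and 32.7% of all tested genes), with a median log2 change of -0.85. Pcdh19 (-0.84 ± 0.09) and Pcdh18 (-0.68 ± 0.11) fell, whereas Pcdh1, which lies downstream of the gamma array on the same chromosome, rose by 2.80 ± 0.11. Of these 10, 2 rose and 2 fell in the Trim28 knockdown (20% each, beside 13.1% and 11.8%), and 1 rose and 1 fell in the double knockdown (10% each, beside 18.1% and 18.5%). Pcdh20 rose in both (1.31 ± 0.28 and 0.98 ± 0.28), and its call in the double knockdown was lost without induced control replicate 3 or double knockdown replicate 1 (edgeR adjusted p up to 0.0813). Among 13 tested classical and related cadherins, 2 rose and 6 fell after induction (15.4% and 46.2%), with Cdh1 at 5.81 ± 0.14 and Cdh2 at -0.92 ± 0.06.

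Markers of other cell types moved with the groups. Fibroblast markers, 12 genes, summed to 27470 to 31490 CPM in the uninduced cells, 17870 to 25370 in the induced controls, 15750 to 17360 in the Trim28 knockdown and 20960 to 23880 in the double knockdown. The uninduced cells were highest, as in the alpha and gamma rows, and the Trim28 knockdown was lowest. In this sum the double knockdown lay within the range of the induced controls, which the alpha and gamma rows exceeded. Of the 12 markers, 2 rose and 8 fell after induction (16.7% and 66.7%, beside 32.7% and 32.7% of all tested genes). Against the induced controls, 3 rose and 6 fell in the Trim28 knockdown (25% and 50%, beside 13.1% and 11.8%). There 4 rose and 4 fell in the double knockdown (33.3% each, beside 18.1% and 18.5%). Between the knockdowns, 7 were higher and 0 lower in the double knockdown (58.3% and 0%, beside 10% and 11.7%). The part of fibroblast content in the members' changes was not tested. Epithelial markers, 7 genes, summed to 7.37 to 8.35, 1605 to 2027, 1625 to 1843 and 910.9 to 1134 CPM in the uninduced cells, induced controls, Trim28 knockdown and double knockdown. Neuron markers, 12 genes, summed to 297.7 to 310.6 CPM in the uninduced cells and to 514.7 to 662.0 CPM over the induced groups, and were mostly reads of Stmn2, Tubb3 and Map2. Of the 9 that were tested, 6 rose and 0 fell after induction (66.7% and 0%, beside 32.7% and 32.7% of all tested genes). In each knockdown against the uninduced cells, 7 rose and 2 fell (77.8% and 22.2%). Of all tested genes, 34.1% rose and 32.6% fell in the Trim28 knockdown, and 31.6% and 27.2% in the double knockdown. Against the induced controls, 4 neuron markers rose and 4 fell in the Trim28 knockdown (44.4% each, beside 13.1% and 11.8%). In the double knockdown 2 rose and 3 fell against the induced controls (22.2% and 33.3%, beside 18.1% and 18.5%). Rbfox3 was the 1 of the 12 at 0 reads in the uninduced cells, and none was at 0 in the induced groups. Glia markers (8 genes) summed to 5.20 to 6.79 CPM in the uninduced cells and 39.4 to 61.2 CPM over the induced groups, endothelial markers (5 genes) to 11.5 to 12.4 and 42.5 to 66.7 CPM, and macrophage markers (5 genes) to 4.79 to 5.78 and 42.4 to 62.97 CPM. These sums hide the direction of single markers. After induction, 1 of 3 tested glia markers rose and 2 fell (33.3% and 66.7%, beside 32.7% and 32.7% of all tested genes). Of 3 tested endothelial markers 2 rose and 1 fell, and all 3 tested macrophage markers rose. In the Trim28 knockdown against the uninduced cells, 2 of these macrophage markers rose and 1 fell. Olig2 was at 0 reads in the uninduced cells and in the double knockdown. The part of these cell types in the results was not tested.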

How the data were processed

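RNA libraries of 12 samples were made with a TruSeq kit, per the labels' protocols. The values are whole-number read counts per gene, as the authors deposited them; per the submitters' processing notes, TopHat2 2.0.12, Bowtie 1.1 and HTSeq were used, with no version given for the latter. Groups and replicate numbers come from the sample titles. Same-numbered libraries of the induced controls and the double knockdown deviated together from their group means (correlations from 0.141 to 0.31 over 3 pairs), so the number may pair them. The main fit had no term for it. In none of the 5 other pairs of groups were all 3 correlations over 0.1. Those of the Trim28 knockdown were all positive with the induced controls (0.061 to 0.159) and with the double knockdown (0.032 to 0.191). The highest correlation, 0.3865, joined differently numbered libraries, uninduced replicate 3 and induced control replicate 2.

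Filtering the 24207 genes at a count of 10 (total 15) left 14520 genes. Their counts were then scaled with TMM factors and fitted in edgeR 4.0.16 (R 4.3.3, quasi-likelihood F-test, 1 term per group, 12 libraries). A gene rose or fell at a Benjamini-Hochberg adjusted p under 0.05 over these genes, in 6 comparisons. The scripts were tested on simulated data. Alternatives were DESeq2 1.42.0, limma-voom (limma 3.58.1), relative log expression factors, no filter, a minimum count of 30, only the compared groups, the replicate number as a block, and each library left out. Gene models came from GENCODE M21, and coding identities from MAFFT 7.526 alignments.

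The members and lists were chosen with earlier results of these data known. Values in single libraries are given for Trim28, Setdb1, the neighbouring gene Taf7 and up to 12 members per array. These members passed the filter and reached 2 CPM in a group or were called. From the other lists, genes were named by the smallest p in the comparisons of induction and of the double knockdown, or by calls in more than 1 comparison of knockdowns. Neighbouring genes were also named by position, those within or between the arrays and the nearest tested on each side. Ctcf, Smchd1, Stmn2, Tubb3, Map2, Rbfox3 and Olig2 were named after their values were seen. The share of Pcdhb22 among beta reads was not among the planned results.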

Additional observations from a re-analysis of the deposited data

How the results depend on the processing

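Of 1152 values of single members under the alternative settings, 1090 kept their direction and side of the threshold, 40 lost the call (29 of them with 1 library left out), 6 gained it and 16 changed sign. All 16 sign changes came from leaving out 1 library and concern values that had not passed the test. With each library left out in turn, Pcdhb15 after induction ran from -0.23 to 0.079 on the log2 scale. In the Trim28 knockdown against induced controls, Pcdhb18 ran from -0.15 to 0.22 and Pcdhga12 from -0.052 to 0.12, and in the double knockdown Pcdhb3 ran from -0.41 to 0.041 and Pcdhb18 from -0.025 to 0.37. Between the knockdowns, Pcdhb2 ran from -0.043 to 0.47, Pcdhb14 from -0.59 to 0.068, Pcdhb18 from -0.021 to 0.30 and Pcdhb22 from -0.051 to 0.062. The number of members that fell in the double knockdown ran from 3 to 6, and the number that rose between the knockdowns from 0 to 2; fewer samples enter these fits. The counts of members called under the other settings stayed within 1.5 times those reported. Without the filter, 16 and 15 members fell in the double and the Trim28 knockdown against uninduced cells, because more genes were tested.

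With the replicate number as a block, the counts of members called were the same in all 6 comparisons: 11 fell after induction, 5 fell and 1 rose in the Trim28 knockdown, 6 fell and 3 rose in the double knockdown, and 13 fell in both knockdowns against uninduced cells. For the double knockdown against the induced controls, where same-numbered libraries deviated together, a block in a fit of those 6 libraries alone, added after seeing the data, again gave 6 that fell and 3 that rose. The block changed no call of a single member. Over all groups, 6 of 18 same-numbered pairs had a correlation over 0.1 (range -0.22 to 0.31), and in 20 of 36 cases a library correlated best with its own number. At this depth 8 beta genes did not pass the filter and were not tested.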
